A study of Mus musculus with 12 samples.

Results

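The receptors that share the common gamma chain were followed through the 4 stages of CD4 single positive (SP) thymocytes, the last steps of CD4 T cell development in the medulla of the thymus. The family was read by 6 genes: Il7r, Il2rb, Il2rg, Il4ra, Il21r and Il15ra. A probe set, the group of short probes that reads 1 transcript on the array, was taken where the array annotation assigns it to one of these symbols alone. This gave 10 probe sets of 5 genes among the 45037 probe sets of the table. Il2rg, which encodes the common gamma chain itself, had no such probe set and was not analysed here.

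Total RNA of 12 samples was hybridized to Affymetrix arrays of the Mouse 430 2.0 design, with 3 biological replicates for each of 4 subsets of thymocytes from untreated C57BL/6 mice aged 6 to 8 weeks. All samples were sorted as CD4+CD8-CD25-NK1.1- cells from thymi pooled over several mice, so no array is 1 animal. SP1 cells were Qa-2-6C10+CD69+, SP2 cells Qa-2-6C10-CD69+, SP3 cells Qa-2-6C10-CD69-, and SP4 cells Qa-2+6C10-CD69-; the question put to these data is how the receptors' transcript levels follow this order. The gate removed cells bearing CD25 or NK1.1, but the study notes that mature T cells returning to the thymus were not excluded and may make up a small part of SP4. In sorted mixtures of this kind, fewer cells that express a gene and less RNA per cell cannot be told apart.

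The common gamma chain pairs with a second chain that decides which cytokine is bound. Il7r encodes the alpha chain for IL-7, a survival signal for T cells. Il2rb encodes the beta chain used by both IL-2 and IL-15, Il15ra the chain that binds and presents IL-15, Il4ra the alpha chain for IL-4, and Il21r the chain for IL-21. The chains signal through the kinases Jak1 and Jak3 and through STAT factors, mainly STAT5 for IL-2, IL-7 and IL-15, STAT6 for IL-4 and STAT3 for IL-21.

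Promoters are shown for Il7r and Il21r, the searched members whose promoter held a match to a STAT or a FOXO motif, factors known to act on genes of this family. No promoter sequence was at hand for Il2rb, so it was not searched. Each line gives the RefSeq promoter on GRCm38.p6, from 250 bases before to 50 bases after the gene's start, with motif matches in capitals. The Il7r promoter lies on the minus strand of chr15:9529827-9530126 and the Il21r promoter on the plus strand of chr7:125603179-125603478.
Il7r: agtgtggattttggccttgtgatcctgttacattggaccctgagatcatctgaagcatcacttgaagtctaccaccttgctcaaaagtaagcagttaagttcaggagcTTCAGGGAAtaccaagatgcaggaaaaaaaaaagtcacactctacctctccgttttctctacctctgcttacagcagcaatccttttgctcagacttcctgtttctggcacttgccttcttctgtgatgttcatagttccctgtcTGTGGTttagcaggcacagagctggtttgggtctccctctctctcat
Il21r: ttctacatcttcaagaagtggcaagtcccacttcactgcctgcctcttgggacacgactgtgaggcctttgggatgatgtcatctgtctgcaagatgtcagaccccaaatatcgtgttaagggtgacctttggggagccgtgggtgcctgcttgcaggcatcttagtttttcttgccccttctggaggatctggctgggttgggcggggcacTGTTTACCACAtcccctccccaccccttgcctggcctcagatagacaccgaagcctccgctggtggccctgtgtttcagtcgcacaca
The first capitals in the Il7r promoter are TTCAGGGAA, a match to the STAT motif TTCNNNGAA, and the second are TGTGGT, the RUNX motif. In the Il21r promoter, TGTTTAC, the reverse complement of the FOXO motif GTAAACA, overlaps ACCACA, the reverse complement of the RUNX motif, by 2 bases. Both strands of the promoters of Il7r, Il21r, Il4ra, Il15ra and Il2rg were searched for these motifs, for the ETS motif CCGGAA and for the STAT6 motif, which has 1 more N than the STAT motif. Il15ra held an ETS match in the first of its windows and Il2rg an ETS and a RUNX match, and the letters of none of the motifs are in the Il4ra window. Of 32851 promoters of this length, 8.3% held the STAT motif, 16.8% the RUNX motif, 3.65% the FOXO motif, 14.9% the ETS motif and 6.95% the STAT6 motif, so the matches describe the sequence and no binding was measured. By the order of genes in the RefSeq annotation, Il4ra and Il21r are direct neighbours on chromosome 7.

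Il2rb was the member that differed between the subsets. Its probe set 1448759_at gave intensities of 77.0, 95.6 and 64.2 for SP1, 117, 142 and 108 for SP2, 76.2, 116 and 94.3 for SP3, and 279, 322 and 220 for SP4. Means from SP1 to SP4 were 78.9 ± 15.8, 122 ± 17.8, 95.5 ± 19.9 and 273 ± 51.6 (SD, n = 3 each). The lowest SP4 array lay above every array of the other subsets, and SP2 lay above SP1 without overlap (seen for 4.67% of probe sets) but overlapped SP3.

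Differences were tested with limma on log2(intensity + 16), with p-values adjusted over all 45037 probe sets, and a gene was called at an adjusted p under 0.05. Fold changes are on that scale, which understates the change of dim probe sets. In SP4 against SP1, Il2rb was higher by 1.61 on the log2 scale (SE 0.20, 95% interval 1.17 to 2.05, adjusted p = 0.00279), and the arrays of replicates 1, 2 and 3 differed by 1.66, 1.60 and 1.55. Of all probe sets, 0.862% were called higher in SP4 than in SP1, and 6.29% were higher with no overlap of arrays. The ratio of the SP4 and SP1 mean intensities was 3.47.

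Il2rb was also higher in SP4 than in SP3, by 1.38 (SE 0.20, 95% interval 0.94 to 1.82, adjusted p = 0.0300, limma), where 0.149% of probe sets were called higher. The pairs of equal replicate number differed by 1.68, 1.36 and 1.09. In SP4 against SP2 the difference was 1.06 (SE 0.20, 95% interval 0.62 to 1.50, adjusted p = 0.0434, limma), where 0.477% of probe sets were called higher, and the pairs differed by 1.15, 1.10 and 0.93. The test over the 4 subsets called Il2rb too (adjusted p = 0.0118, limma F test), beside 0.582% of probe sets. These 3 calls were lost without single arrays, although the differences stayed between 1.25 and 1.52 in SP4 against SP3 and between 0.94 and 1.20 in SP4 against SP2, and some of the arrays are of subsets outside the comparison. The call in SP4 against SP3 was lost without 8 of the 12 arrays, one at a time, namely SP1 replicate 1, SP2 replicate 1 or 2, any SP3 array and SP4 replicate 1 or 2 (adjusted p up to 0.196). The call in SP4 against SP2 was lost without any 1 array other than SP1 replicate 3 and SP4 replicate 3 (adjusted p up to 0.196), and the call over the 4 subsets without SP4 replicate 1 or 2. With the replicate number as a block, the adjusted p was 0.000368 in SP4 against SP3, where 0.897% of probe sets were called higher, and 0.000455 in SP4 against SP2, where 1.84% were.

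Between the earlier subsets Il2rb was not called. SP2 exceeded SP1 by 0.55 (95% interval 0.11 to 0.99, adjusted p = 1.00, limma), and by 0.52, 0.50 and 0.62 in the 3 pairs. In that comparison no probe set passed without the block (0% called), while 1237 had an unadjusted p under 0.05. With the replicate number as a block, the adjusted p of this difference was 0.199. SP3 and SP2 differed by -0.32 (95% interval -0.76 to 0.12) and SP3 and SP1 by 0.23 (95% interval -0.21 to 0.67). In the order of the means, SP4, SP2, SP3 and SP1, only the step between SP4 and SP2 passed the test.

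The second Il2rb probe set, 1417546_at, read 57.8, 56.4 and 24.2 for SP1, 75.8, 87.9 and 28.8 for SP2, 52.8, 56.4 and 28.0 for SP3, and 154, 124 and 30.2 for SP4. Replicates 1 and 2 of SP4 stood above all other arrays, while replicate 3 of SP4 lay below all 6 arrays of replicates 1 and 2 in the earlier subsets. SP4 exceeded SP1 by 0.78 (95% interval -0.25 to 1.82, adjusted p = 0.845, limma), and by 1.20, 0.95 and 0.20 in the 3 pairs. With the replicate block this probe set was called (adjusted p = 0.0271). Replicate 3 was the lowest array by this probe set in every subset. With the log2 values of both probe sets averaged, Il2rb differed by 1.20 between SP4 and SP1 and was no longer called (SE 0.30, adjusted p = 0.0793, limma).

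**Figure D1:**
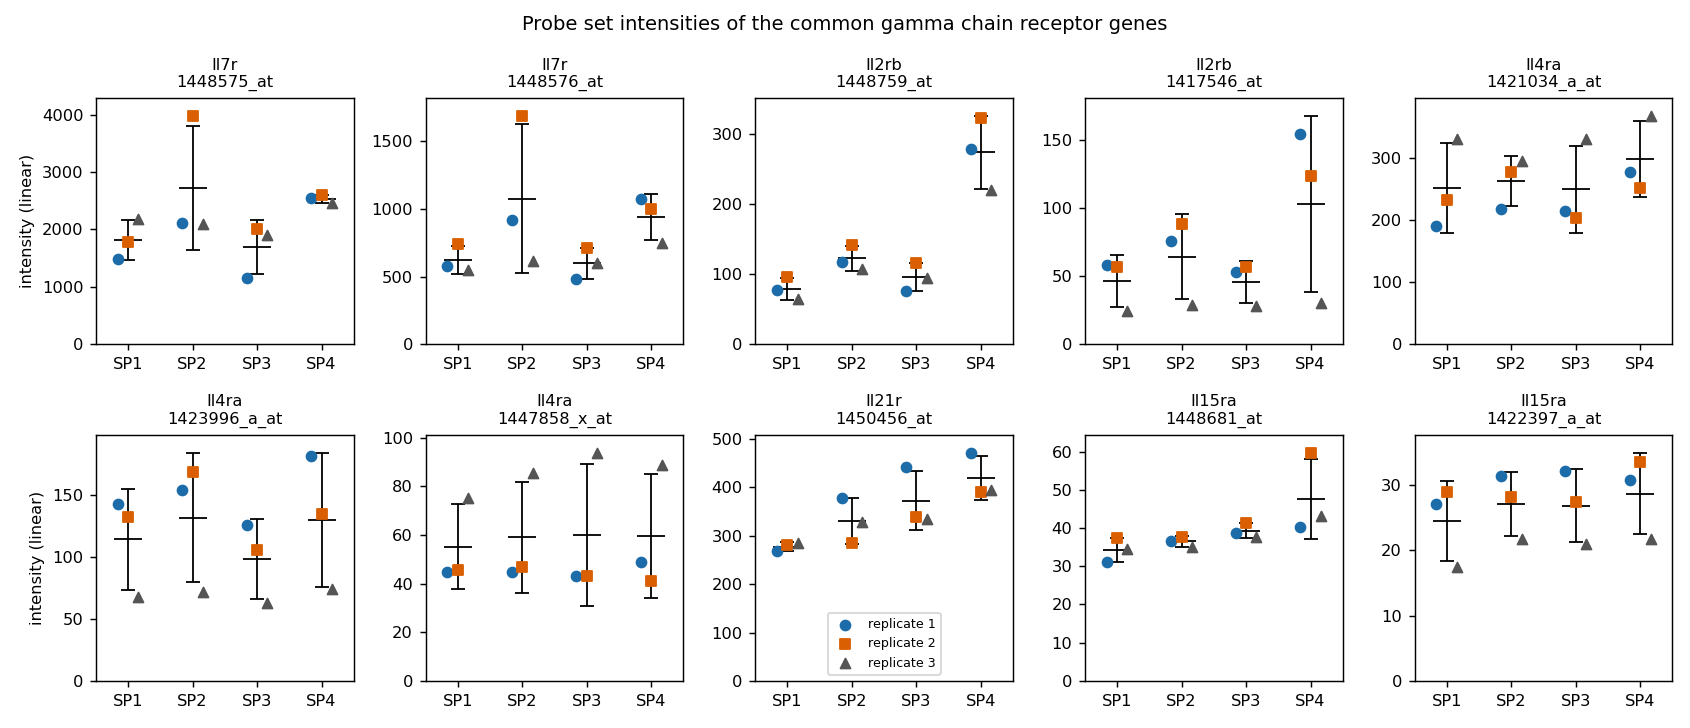
Linear intensity (y axis, starting at 0) of the 10 probe sets in SP1 to SP4. Points are single arrays by replicate number, the wide bar is the mean and the whiskers 1 SD of 3 arrays; Il2rb by 1448759_at lies between 220 and 322 in SP4 and at most at 142 elsewhere.

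Il15ra, whose product presents IL-15 to cells that carry Il2rb, was measured near the middle of the intensity scale. By 1448681_at, it read 31.0, 37.3 and 34.6 for SP1, 36.7, 37.8 and 35.0 for SP2, 38.7, 41.5 and 37.7 for SP3, and 40.2, 59.7 and 43.1 for SP4. Array medians were 30.5 to 32.8, and the table holds no detection calls. SP4 lay above SP1 without overlap, as seen for 6.29% of all probe sets, and was higher in 3 of 3 pairs. The difference was 0.33 on the log2 scale (95% interval 0.06 to 0.60, adjusted p = 0.437, limma). Il15ra did not pass with the replicate block either (adjusted p = 0.0888). The other probe set, 1422397_a_at, spanned 17.4 to 33.6 over all arrays, and SP4 exceeded SP1 by 0.15 (95% interval -0.19 to 0.48).

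Il21r was read by 1 probe set, 1450456_at. It gave 268, 280 and 286 for SP1, 379, 285 and 328 for SP2, 443, 339 and 335 for SP3, and 471, 391 and 396 for SP4. Mean intensities were 278 ± 9.4, 331 ± 47.0, 372 ± 61.4 and 419 ± 45.1 from SP1 to SP4 (SD, n = 3 each). Each later subset was higher than each earlier one in 3 of 3 pairs, and SP4 overlapped neither SP1 nor SP2, as seen for 6.29% and 4.41% of all probe sets.

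In SP4 against SP1, Il21r was higher by 0.56 (SE 0.17, 95% interval 0.19 to 0.94), which did not pass without the block (adjusted p = 0.235, limma). With the replicate number as a block it was called (SE 0.12, adjusted p = 0.0185), where 3.39% of probe sets were called higher. Il21r was the only gene, read by its probe set of highest mean, whose call turned on the pairing. Of its neighbouring steps, SP2 and SP1 differed by 0.23 (95% interval -0.14 to 0.60), SP3 and SP2 by 0.16 (-0.21 to 0.54), and SP4 and SP3 by 0.17 (-0.20 to 0.55), and none passed with or without the block.

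**Figure D2:**
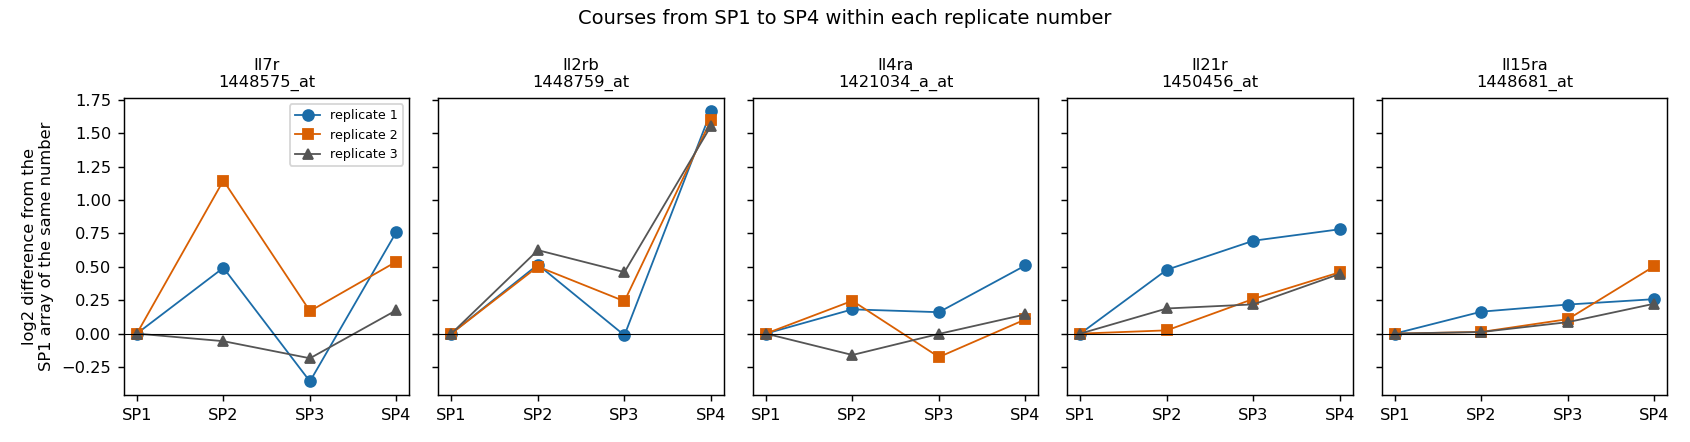
Log2 difference of each array from the SP1 array of the same replicate number (y axis) over SP1 to SP4, for the probe set of highest mean of each gene. The 3 lines of Il2rb end between 1.55 and 1.66 in SP4, those of Il21r lie above 0 in every later subset, and those of Il7r part at SP2.

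Il7r, the receptor that mature T cells need for survival, was measured well above the array medians, but none of its differences between subsets passed the test. By 1448575_at, intensities were 1491, 1787 and 2173 for SP1, 2105, 3974 and 2089 for SP2, 1160, 2010 and 1910 for SP3, and 2541, 2604 and 2457 for SP4. Means were 1817 ± 342, 2723 ± 1083, 1694 ± 465 and 2534 ± 73.6 (SD, n = 3 each). Both CD69+ and CD69- subsets thus held a high and a low mean, and the SP2 mean was carried by replicate 2, at 3974.

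SP4 exceeded SP3 by 0.62 (SE 0.27, 95% interval 0.02 to 1.21, adjusted p = 1.00, limma), without overlap and in 3 of 3 pairs, by 1.12, 0.37 and 0.36. SP4 exceeded SP1 by 0.49 (95% interval -0.10 to 1.09, adjusted p = 0.787), also without overlap, with pair differences of 0.76, 0.54 and 0.18. SP3 was lower than SP2 in 3 of 3 pairs without overlap, by -0.85, -0.98 and -0.13, and the fitted difference was -0.65 (95% interval -1.25 to -0.06, adjusted p = 1.00). No overlap in these directions was seen for 3.92%, 6.29% and 3.52% of all probe sets. In SP3 against SP2 no probe set was called without the block (0%), while 1359 had an unadjusted p under 0.05. With the replicate block the adjusted p-values of Il7r were 0.245 in SP4 against SP3, 0.233 in SP4 against SP1 and 0.314 in SP3 against SP2.

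SP4 and SP2 differed by -0.03 for Il7r by 1448575_at, with an interval from -0.63 to 0.56, and by -0.08 (95% interval -0.77 to 0.60) by the second probe set, 1448576_at. This second probe set followed the first with a Pearson r of 0.86 over the 12 arrays, as a description. It read 578, 745 and 548 for SP1, 919, 1686 and 618 for SP2, 484, 712 and 598 for SP3, and 1072, 998 and 751 for SP4. SP4 again stood above SP1 and above SP3 without overlap, by 0.58 (95% interval -0.11 to 1.26) and 0.64 (95% interval -0.04 to 1.32).

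Il4ra, the chain for IL-4, did not differ detectably between subsets, and its 3 probe sets disagreed on the arrays. By 1421034_a_at it read 190, 232 and 331 for SP1, 218, 279 and 295 for SP2, 214, 204 and 331 for SP3, and 278, 251 and 368 for SP4, with replicate 3 highest in every subset. By 1423996_a_at it read 143, 132 and 67.8 for SP1, 155, 169 and 72.1 for SP2, 126, 106 and 63.0 for SP3, and 182, 135 and 74.1 for SP4, with replicate 3 lowest in every subset. By 1447858_x_at the replicate 3 arrays lay between 75.2 and 93.7 and all others between 41.1 and 48.7. The first and second probe sets correlated at -0.629 over the 12 arrays, which share their replicate numbers, and the first and last at 0.842. SP4 and SP1 differed by 0.25 (95% interval -0.29 to 0.80, adjusted p = 0.995, limma) by 1421034_a_at, by 0.15 (95% interval -0.68 to 0.98) by 1423996_a_at and by 0.06 (95% interval -0.62 to 0.74) by 1447858_x_at. Differences of the size seen for Il2rb lie outside these intervals, while the 0.56 seen for Il21r lies inside them. With the replicate block the intervals were -0.04 to 0.55, -0.12 to 0.41 and -0.17 to 0.29, and 0.56 lies outside all 3.

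**Figure D3:**
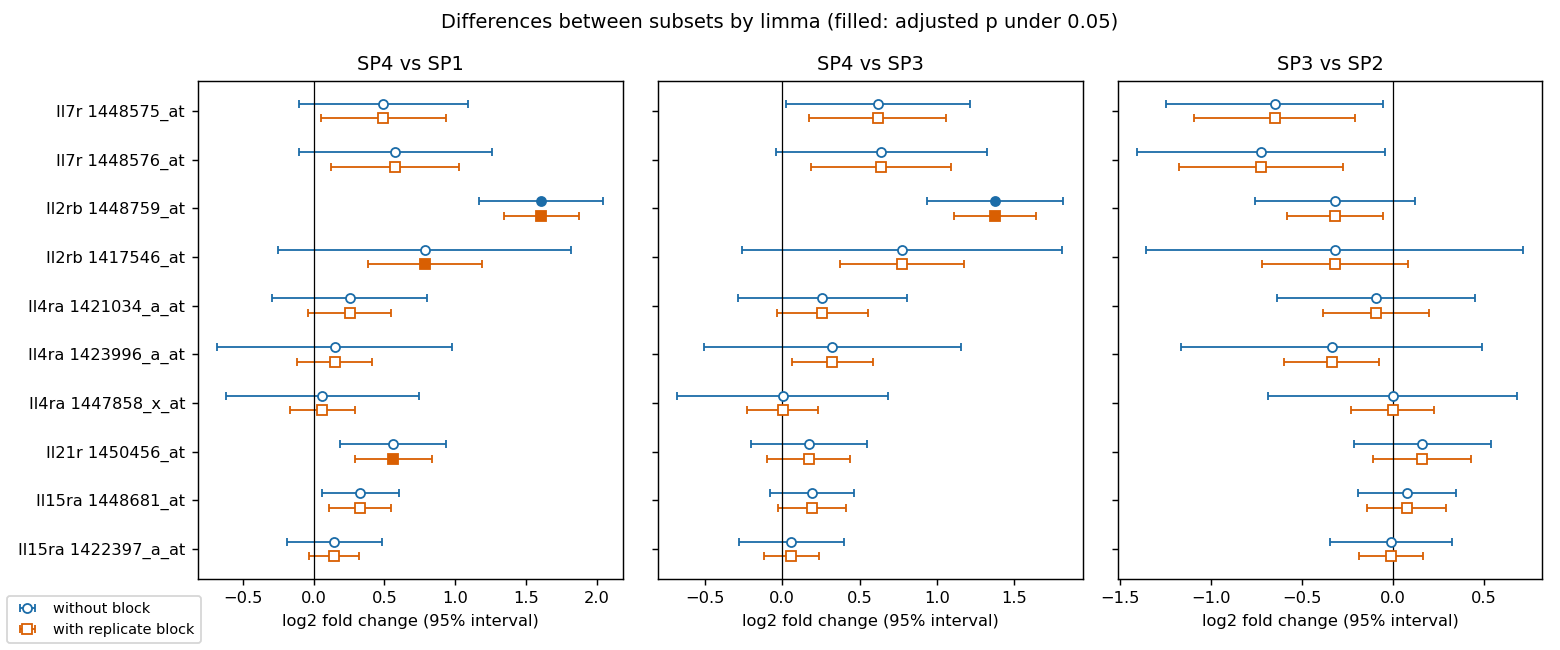
Log2 fold change with its 95% interval (x axis) of the 10 probe sets (y axis) in SP4 against SP1, SP4 against SP3 and SP3 against SP2, by limma without and with the replicate block. Filled points passed an adjusted p of 0.05; the Il2rb probe set 1448759_at, at 1.61 and 1.38 against SP1 and SP3, is filled in both fits.

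Over the 5 measured genes, all were higher in SP4 than in SP1 by their fitted value, with a median of 0.49 against -0.01 over 18193 genes. Of the 5, 1 was called without the block and 2 with it, beside 222 genes higher and 54 lower, and 757 higher and 346 lower with the block. In SP3 against SP1, 0 of 5 were called by limma (1 with an unadjusted p under 0.05, Il21r), beside 0.0111% of probe sets. The same 0 held in SP2 against SP1 (1 unadjusted, Il2rb) and SP3 against SP2 (1 unadjusted, Il7r).

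The genes whose pattern over the 12 arrays was most like each member were read by Pearson's r among 7179 genes with a mean intensity over 100, as a description of arrays that share subset and replicate number. For Il7r they were Btla (0.970), an inhibitory receptor of lymphocytes, Crybg1 (0.944) and Rassf5 (0.935), a regulator of integrin adhesion. For Il2rb they were Prmt3 (0.974), an arginine methyltransferase, Pea15a (0.959) and Trim30d (0.958). For Il21r they were Rasgrp2 (0.881), an activator of Rap1, Dnah8 (0.879) and Ltb (0.878), the lymphotoxin beta chain. Those of Il4ra were Elf1 (0.958), an ETS factor, Plcl2 (0.957) and Tmem64 (0.948), and those of Il15ra were Nipal1 (0.920), Rnh1 (0.902) and Zfp217 (0.891). Each member was read by its probe set of highest mean. For Il4ra this was 1421034_a_at, with which 1423996_a_at correlated at -0.629, so its list holds for that probe set only.

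Markers of the labelled cell type and of other cells were read. Double positive thymocytes, which bear CD4 and CD8, also express Cd4, so the summed CD4 T cell list does not test the CD8- label. Over all probe sets, 0.862% were called higher in SP4 than in SP1 without the block and 3.39% with it. The summed intensity of 7 measured CD4 T cell markers, among them Cd3d, Cd3e, Cd3g and Cd4, lay between 12978 and 16402 on all arrays, and 0 of the 7 were called in SP4 against SP1 by limma (0 with an unadjusted p under 0.05). Some markers of other cells differed between SP4 and SP1, as Il2rb did. On the list for NKT and other innate-like T cells, 14 genes were measured, of which 7 were called higher in SP4 than in SP1 and 0 lower (9 and 0 with the block), with a median of 1.47, and their sum was 2358 to 3464 in SP4 arrays, against 457 to 1068 in SP1, 428 to 755 in SP2 and 808 to 895 in SP3. Zbtb16, the factor that defines NKT cells, averaged 264 ± 78.3 in SP4 and 25.2 ± 12 in SP1 (SD, n = 3 each), a difference of 2.76 (adjusted p = 0.00106, limma). Klra1 and Klrb1b stayed at or below 8.26 on every array, and the gene for NK1.1 itself, Klrb1c, was not measured here.

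Of 9 activated or memory T cell markers, 2 were called higher in SP4 than in SP1 (Ahnak and Ccr2), 6 with the block, and their sum was 4078 to 5496 in SP4 and 2497 to 3521 in SP1. NK cells also carry Il2rb: of 5 NK cell markers 0 were called by limma without the block (2 with an unadjusted p under 0.05), and 4 of 5 differences were above 0. The exception was Gzma, the brightest of the 5, at 463 ± 129 in SP4 and 884 ± 720 in SP1 (SD, n = 3 each). The sum of the list was 621 to 799 in SP4 and 141 to 1524 in SP1. The 2 called with the block were Gzmb, at 111 ± 31.5 in SP4 and 51.6 ± 22.8 in SP1 (adjusted p = 0.0406 with the block), and Klrk1, at 87.4 ± 34.5 in SP4 and 42.9 ± 19.3 in SP1 (adjusted p = 0.0276 with the block; SD, n = 3 each), while Ncr1 stayed at or below 14.9 on every array. Of 7 regulatory T cell markers, Foxp3 was called higher without the block and Foxp3 and Ctla4 with it. Only 3 of the 7 differences were above 0, and the median difference was -0.11. Ikzf2, Tnfrsf18, Tnfrsf4 and Gpr83 had lower means in SP4 than in SP1. Foxp3 was higher by 1.48 (adjusted p = 0.0361, limma), a call lost without 7 of the 12 arrays one at a time (any SP1 array, SP2 replicate 1, SP3 replicate 1, and SP4 replicates 1 and 2; adjusted p up to 0.144), and the list's sum was 2715 to 5221 in SP4 and 2907 to 5544 in SP1. Of 5 measured B cell, 7 myeloid and 2 gamma delta T cell markers, 0 were called without the block (0, 1 and 1 with an unadjusted p under 0.05), and with it 1 myeloid marker, Itgam, was called higher, by 0.27 (adjusted p = 0.0147). The NKT and memory sums thus stood highest in the 3 arrays where Il2rb did, but within SP4 the order of the replicates differed. Replicates 1, 2 and 3 of SP4 had NKT sums of 2358, 3101 and 3464 and memory sums of 4078, 5496 and 5374. Il2rb read 279, 322 and 220 on these arrays by 1448759_at. The part of these cells in the Il2rb result was not tested.

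Markers of cortical double positive thymocytes varied widely between arrays. Their sum over 8 measured genes, Rag1 and Cd8a among them, was 7065, 7137 and 772 for SP1, 2159, 562 and 815 for SP2, 13326, 7314 and 2103 for SP3, and 3211, 3110 and 931 for SP4. The SP3 array with the largest sum, replicate 1, had the lowest Il7r reading by 1448575_at, and the SP2 array with the smallest, replicate 2, the highest. Not all arrays followed this order. In SP3, replicate 3 had a sum of 2103 and Il7r at 1910, and replicate 2 had 7314 and 2010. In SP4, replicate 3 had both the smallest sum, 931, and the lowest Il7r reading, 2457. The part of these markers in the Il7r levels was not tested. Of the 8, 0 were called by limma without the block in SP3 against SP2 (6 with an unadjusted p under 0.05), where their median difference was 2.36, and 2 were called higher with it, beside 0.0888% of all probe sets.

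**Figure D4:**
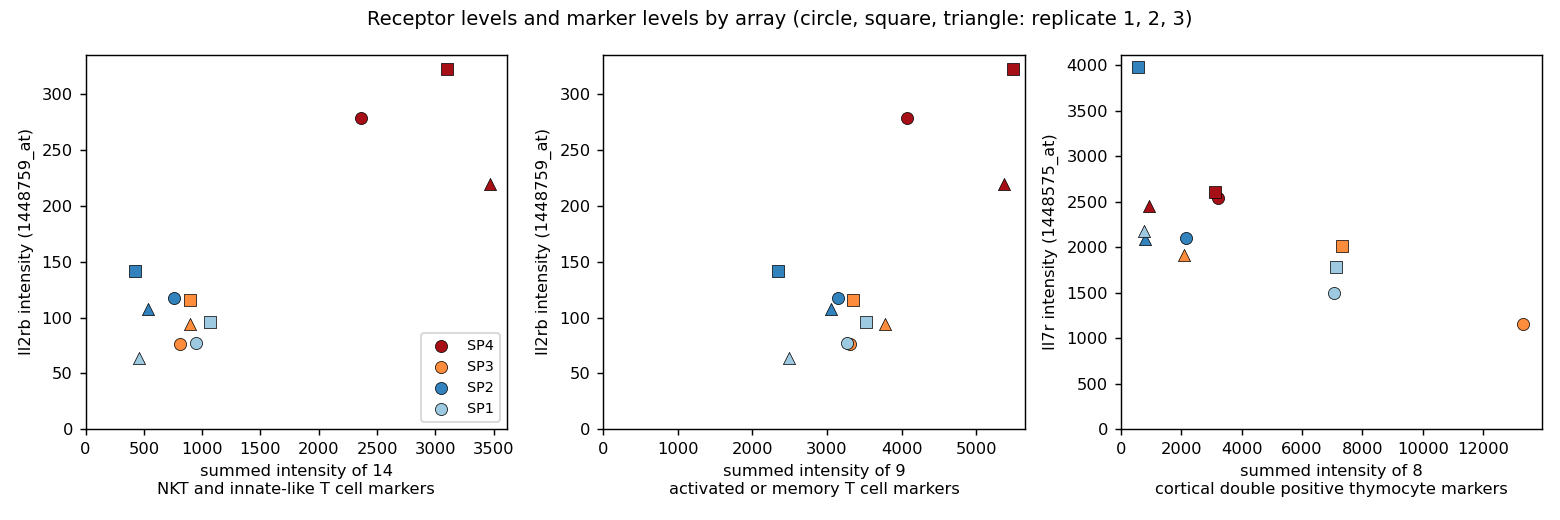
Il2rb intensity against the summed intensity of the NKT list (left) and of the memory T cell list (middle), and Il7r intensity against that of double positive thymocyte markers (right), with 1 point per array and linear axes from 0. The 3 SP4 arrays lie apart from the other 9 on both Il2rb panels, at 220 to 322, and the SP3 array at a sum of 13326 has the lowest Il7r intensity, 1160.

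The genes around the receptors were read from lists of cytokines, partner chains, signal carriers, suppressors, targets and factors, in SP4 against SP1. Over all 45037 probe sets, 388 were called higher and 99 lower without the block, and 1527 higher and 796 lower with it. Of 8 cytokines listed around the receptors, Il4 was called higher, by 2.94 (adjusted p = 0.0220, limma), with 70.6 to 536 in SP4 arrays and 9.78 to 17.7 in SP1 arrays. That call was lost without any 1 SP1 array or SP4 replicate 2 (adjusted p up to 0.0944). Il4 is also on the NKT list. Il13, which uses Il4ra with another partner, was called with the block alone (0.68, adjusted p = 0.133 without and 0.0199 with it). Il7 and Il15, which stromal cells are known to make, averaged 6.40 and 6.13 in SP4 and 6.07 and 7.79 in SP1. These readings lie below the offset of 16 and the array medians of 30.5 to 32.8, so they are near the floor.

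Of 5 partner chains, 0 passed by limma in either fit (0 with an unadjusted p under 0.05), and their median difference was -0.05. Il2ra, the CD25 gene, differed by 0.30 (SE 0.28) in cells sorted as CD25-, and Crlf2, which pairs with Il7r for the cytokine TSLP, by 0.24 (SE 0.21). Of 8 measured Janus kinases and STAT factors, 0 were called by limma without the block (1 with an unadjusted p under 0.05) and 2 with it. These were Jak3, the kinase that binds the common gamma chain (0.66, adjusted p = 0.795 without and 0.00434 with the block), and Stat3, the main STAT of IL-21 (0.75, adjusted p = 0.0629 without and 0.00473 with the block). Stat5a and Stat5b, the main STAT factors of IL-2, IL-7 and IL-15, differed by 0.02 (SE 0.15) and -0.20 (SE 0.20), and Stat6, the STAT of IL-4, by 0.28 (SE 0.18).

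Of 6 feedback suppressors, 1 was called higher, 1 lower and 4 in neither direction. Socs3 was higher in SP4 than in SP1 by 1.40 (adjusted p = 0.00251, limma), at 156 ± 11.7 in SP4 and 50.2 ± 13.2 in SP1 (SD, n = 3 each), and all 12 fits that left out 1 array called it. Socs1, the suppressor best known for acting on this family, was lower by -0.96 (adjusted p = 0.0382, limma), at 81.5 ± 13.5 in SP4 and 173 ± 20.5 in SP1. Its call was lost in 10 of those 12 fits, all but those without SP3 replicate 2 or SP3 replicate 3 (adjusted p up to 0.146). Cish and Socs2, both induced by STAT5, differed by 0.03 (SE 0.41) and 0.10 (SE 0.12).

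Of 12 targets of the signal, 0 were called by limma without the block (4 with an unadjusted p under 0.05) and 6 with it. With the block, 1527 of all 45037 probe sets were called higher and 796 lower. Irf4 (1.19, adjusted p = 0.0253 with the block), Myc (0.81, 0.0122), Pim2 (0.63, 0.0144) and Ccnd2 (0.54, 0.0274) were higher in SP4 than in SP1. Bcl2l1, an inhibitor of apoptosis, was lower by -0.62 (adjusted p = 0.00547 with the block), and Gata3, a lineage factor of CD4 cells, by -0.49 (adjusted p = 0.0262 with the block). Bcl2, the survival gene best known as an IL-7 target, differed by -0.43 (SE 0.31, adjusted p = 0.932 without the block).

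Of 11 factors known to act on Il7r or Il2rb, 2 were called higher and 0 lower, and 3 and 0 with the block. Tbx21, the T-box factor T-bet that is known to activate Il2rb, averaged 117 ± 29.8 in SP4, 27.9 ± 6.01 in SP3 and 26.4 ± 6.37 in SP1 (SD, n = 3 each). It was higher in SP4 than in SP1 by 1.64 (adjusted p = 0.00158, limma) and than in SP3 by 1.59 (adjusted p = 0.0176, limma). Tbx21 too is on the NKT list. Klf2, a factor of mature T cells that leave the thymus, averaged 1354 ± 315 in SP4 and 341 ± 68.2 in SP1 (SD, n = 3 each), higher by 1.93 (adjusted p = 0.00854, limma). Foxo1, an activator of Il7r and Klf2, averaged 1306 ± 284 in SP4 and 635 ± 170 in SP1, and its difference of 1.03 passed with the block alone (adjusted p = 0.167 without and 0.000645 with it). Gabpa and Gfi1, an activator and a repressor of Il7r, differed by 0.13 (SE 0.16) and -0.26 (SE 0.30).

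**Figure D5:**
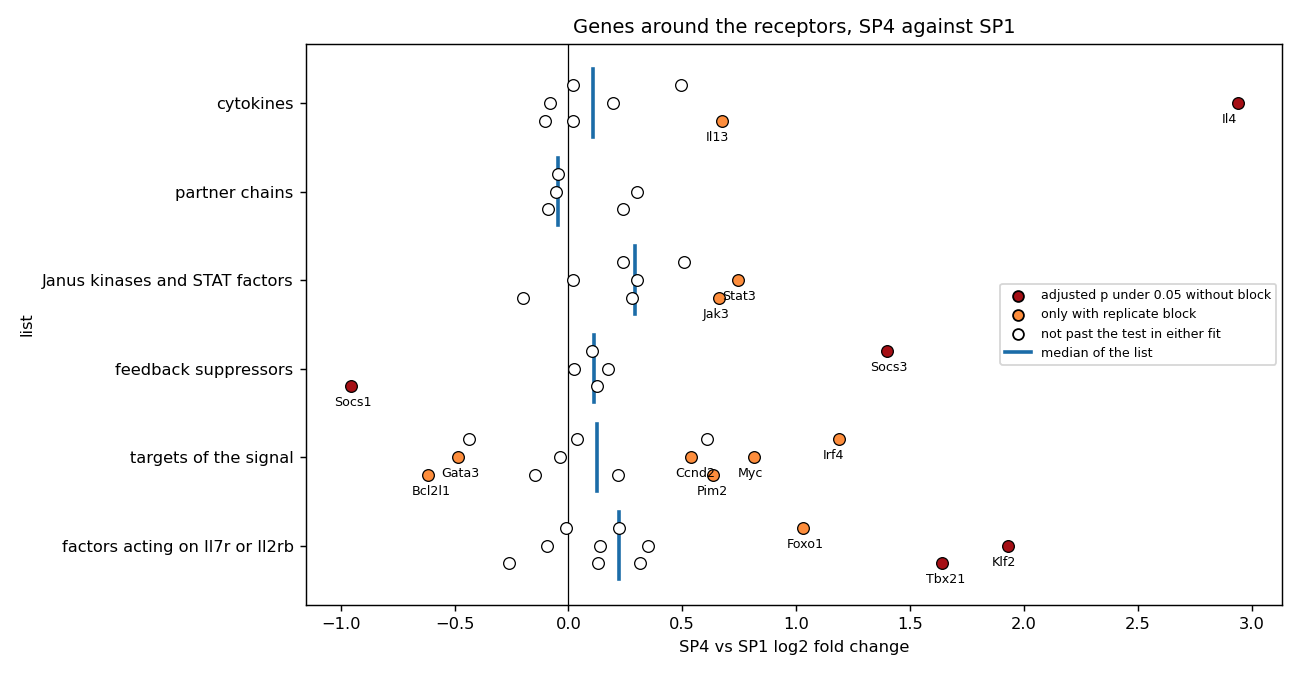
Log2 fold change of SP4 against SP1 (x axis) for each measured gene of the 6 lists around the receptors (y axis), by limma, with the median of each list as a blue line; red points passed without the block, orange points with it only, and open points in neither fit. Medians lie between -0.05 and 0.29, and the largest differences are Il4 at 2.94, Klf2 at 1.93, Tbx21 at 1.64 and Socs3 at 1.40.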

How the data were processed

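The authors hybridized RNA of sorted thymocytes to Affymetrix arrays and deposited 1 table of linear probe set intensity values, already normalized. Their methods name RMA in R Bioconductor and the submitters' processing notes name MAS5, so which one made the table is open, and low intensities depend on this. The number of arrays limits the precision, and no control spots or detection calls were used.

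An offset of 16 was added before log2, and limma 3.58.1 (R 4.3.3) fitted the 4 subset means over the 12 arrays together (8 residual degrees of freedom, eBayes with a mean-variance trend), adjusting by Benjamini-Hochberg over 45037 probe sets in each of 6 comparisons. The fit was tested on simulated data with noise drawn independently for each array, so that test does not cover offsets between replicate numbers. A gene was read by its probe set of highest mean, avoiding the _x_at kind where another existed; 34945 probe sets name 1 gene, 932 several and 9160 are unnamed here.

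Replicate numbers come from the sample titles. Deviations from subset means of same-numbered arrays correlated between 0.279 and 0.883, above 0.1 in every pair, but so did those of replicates 1 and 2 with each other (0.178 to 0.729), so the check parts replicate 3 (-0.812 to -0.388 with the others) and does not tell 1 from 2; the first principal component (56.8% of variance) parted replicate 3 from the others; a second fit took the number as a block, leaving 6 residual degrees of freedom. The study's figure captions name 3 array repeats that each hold SP1 to SP4, without tying them to these replicate numbers. P-values without the block measure the spread between pooled preparations, including offsets between replicate numbers. Those with the block measure the spread left after such offsets are removed.

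All members are named, with the 3 genes most alike, and of each list the called members in order of fold and up to 4 others. Members and lists were chosen with earlier results of these data known. Alternatives were the block, offsets of 1 and 64, no trend, only the 6 arrays compared, without the replicate 3 arrays, repeated quantile normalization, a mean intensity over 100, all probe sets of a gene averaged, and leaving out each array.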

Additional observations from a re-analysis of the deposited data

How the results depend on the processing

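In SP4 against SP1, 1 member was called (Il2rb), 2 with the replicate block (Il2rb and Il21r) and 0 when all probe sets of a gene were averaged, where Il2rb stood at 1.20 (SE 0.30, adjusted p = 0.0793); leaving out single arrays gave 1 member each time, with 1.49 to 1.75 for Il2rb. In SP4 against SP2, the 1 call (Il2rb) became 0 with an offset of 1 (adjusted p = 0.0565), with only the 6 arrays compared (0.211) and with averaged probe sets (0.468), and 0 to 1 without single arrays. In SP4 against SP3, the 1 call became 0 with only the 6 arrays compared (adjusted p = 0.224), with probe sets over 100 alone (0.056) and with averaged probe sets (0.27), and 0 to 1 without single arrays. Over the 4 subsets, the 1 call became 0 with averaged probe sets and 0 to 1 without single arrays. In SP2 against SP1, SP3 against SP1 and SP3 against SP2, 0 members were called under every alternative run. The replicate block changed no other call of a member. Averaging merges probe sets that differ in brightness, and the fit on 6 arrays has 4 residual degrees of freedom. The second Il2rb probe set, 1417546_at, was not called in SP4 against SP1 by the main fit. It was called there once the replicate 3 arrays were left out. Why the calls above were lost was not tested. Without the replicate 3 arrays, Il2rb was higher in SP4 by 1.63 than in SP1 (adjusted p = 0.00365), by 1.12 than in SP2 (0.0308) and by 1.52 than in SP3 (0.00976). No result changed its sign past the threshold. Il15ra was not tested with the minimum intensity of 100, and dim probe sets such as those of Il15ra allow no statement on absence.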
